A study of Mus musculus with 6 samples.

Results

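The YAP and TEAD genes and stretch targets were 10 genes picked by name from the 25006 listed for each library: the co-activators Yap1 and Wwtr1, their DNA-binding partner Tead1, the upstream regulators Lats2, Amotl2 and Ajuba, and the targets Ankrd1, Ccn1, Ccn2 and Axl. All 10 were found, and all 10 passed the filter on low counts. They were read in 3 null-labelled and 3 control libraries of mouse heart ventricle at embryonic day 17.5 on an NMRI background. The null-labelled embryos carry VecadcreERT2, a Cre recombinase active only with tamoxifen and driven by the VE-cadherin promoter of endothelial cells, together with Prox1f/f, floxed alleles of the transcription factor that specifies lymphatic endothelium. The controls are labelled WT, but both parents named in the labels' protocols carry floxed Prox1 on both alleles, so whether the controls are floxed is unclear. Dams received tamoxifen at 5 mg for each 40 g of weight on a pair of consecutive days before sampling, and the labels give this treatment for both groups. Cre was thus present in the null-labelled group and not named for controls, and an effect of Cre cannot be told apart from one of Prox1 loss. The labels do not say whether each library came from a separate embryo, so p-values measure the spread between these libraries.

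In the Hippo pathway, a kinase cascade ending in LATS1 and LATS2 phosphorylates the co-activators YAP and TAZ (the product of Wwtr1) and keeps them out of the nucleus. When the cascade is quiet, as in cells under mechanical tension, YAP and TAZ enter the nucleus and bind TEAD factors, which recognise the MCAT motif, CATTCC, in target genes. In fetal heart the pathway is known for its control of cardiomyocyte proliferation, and several of its targets also respond to stretch. Lats2 and Amotl2 encode inhibitors of YAP that are themselves targets, so that they form a negative feedback.

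The libraries held 35195544 to 44330594 counts, and 3 counts then equal 0.0677 to 0.0852 CPM, the count scaled to library size. Cardiac muscle was present by 6 cardiomyocyte markers, shared by ventricle and atrium, which summed to 43800 to 44500 CPM in null-labelled libraries and 40500 to 44400 CPM in controls. Prox1 was not lower under the null label: it averaged 164 ± 3.91 CPM in null-labelled libraries and 147 ± 3.15 CPM in controls (SD, n = 3 each). Cardiomyocytes express Prox1 too, and whole-gene counts may include exons outside the deleted part, so Prox1 alone does not check the labels. Esr1, the gene of the estrogen receptor whose ligand-binding domain CreERT2 carries in its human form, had 7.41, 6.71 and 7.02 CPM in null-labelled libraries, against 0.318, 0.250 and 0.538 CPM in controls. Its log2 fold change was 4.26 (adjusted p = 2.57e-05), and 4.19 from null 2 alone. Of 6 lymphatic endothelial markers, Reln (-0.72, adjusted p = 0.000654) and Mmrn1 (-2.38, adjusted p = 0.0211) fell, Prox1 rose and 3 did not pass. Across all genes tested, 2.98% were called lower and 2.43% higher, shares to set beside the atrial counts below as well. Mmrn1 did not pass in limma-voom (adjusted p = 0.0552), and its log2 fold change from null 2 alone was -2.88. Of 6 atrial markers 1 rose and 5 did not pass, and their sums differed widely within groups, at 630 to 1140 CPM in null-labelled libraries and 1150 to 1510 CPM in controls. Nppa, a stretch gene as well, is among them. Myl7 had 184, 271 and 332 CPM in null-labelled libraries, against 143, 234 and 252 CPM in controls. Myl4 went the other way, with 157, 228 and 281 CPM in null-labelled libraries, against 223, 389 and 385 CPM in controls. In log2 fold change 4 of the atrial markers lay above 0 and 2, Nppa and Myl4, below. DESeq2 called 1 of the 6 atrial markers higher and 1 lower. The part of atrial tissue in the results was not tested. Null 1 and null 3 held 9218 and 9952 counts of 4 Y-linked genes together with 1798 and 5738 counts of Xist, so both kinds of transcript were present. Null 2 had 190 Y-linked and 50586 Xist counts, control 3 had 175 and 49485, and controls 1 and 2 had 11143 and 8735 Y-linked with 28 and 29 Xist counts. Genes of the pathway lists that passed are therefore also given from null 2 alone against the controls, as log2 fold changes only. With 1 null-labelled library the fit shows no spread in that group. By Xist and Y-linked counts null 2 was like control 3 and unlike controls 1 and 2. Sex is thus unbalanced in that comparison, and its part was not tested.

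Sequences around the start sites are shown because TEAD factors act through MCAT motifs and the members include TEAD targets. RefSeq promoter windows of build GRCm38.p6, reaching from 250 bases before to 50 bases after the start site, were given for 8 of the 10 genes; Tead1 and Ccn2 had none. CATTCC, or GGAATG where the motif lies on the other strand, was found in all 8 genes. Of all 32841 windows of the same length, 14.7% held it, as did at least 1 window of 14.8% of the 11566 tested genes with a window. Of YAP target signature genes outside the members, described below, 2 of the 10 with a window held CATTCC (20.0%), and 0 had 2 or more matches. The share was 28.6% for the kinase cascade and regulators, 36.8% for stretch-responsive and 13.3% for immediate early genes. Ankrd1 and Ajuba had 2 matches each, a number reached by 1.57% of all genes with a window. Their whole windows follow, 5′ to 3′, with the motif in capitals, for Ankrd1 (chr19:36119795-36120094, minus strand) and Ajuba (chr14:54577612-54577911, minus strand).
Ankrd1: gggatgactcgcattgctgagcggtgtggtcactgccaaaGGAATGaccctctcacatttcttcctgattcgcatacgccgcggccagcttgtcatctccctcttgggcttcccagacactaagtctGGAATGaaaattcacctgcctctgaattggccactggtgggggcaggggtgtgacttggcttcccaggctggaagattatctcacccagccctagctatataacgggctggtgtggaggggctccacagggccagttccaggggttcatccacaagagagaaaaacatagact
Ajuba: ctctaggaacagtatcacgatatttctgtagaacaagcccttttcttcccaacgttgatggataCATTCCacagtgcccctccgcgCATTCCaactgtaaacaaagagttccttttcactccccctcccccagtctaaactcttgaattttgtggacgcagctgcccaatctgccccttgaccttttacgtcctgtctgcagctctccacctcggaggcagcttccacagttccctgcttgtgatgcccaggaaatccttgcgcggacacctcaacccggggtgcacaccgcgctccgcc

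The other 6 genes had 1 match in a window, and the bases around it are given on the strand of the gene. They are Yap1 (chr9:8004720-8004749, minus strand), Wwtr1 (chr3:57576029-57576058, minus strand), Lats2 (chr14:57746102-57746131, minus strand), Amotl2 (chr9:102717727-102717756, plus strand), Ccn1 (chr3:145650071-145650100, minus strand) and Axl (chr7:25788949-25788978, minus strand).
Yap1: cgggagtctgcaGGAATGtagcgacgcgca
Wwtr1: ggtaaactcaaaGGAATGcagataggcgct
Lats2: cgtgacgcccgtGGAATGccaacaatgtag
Amotl2: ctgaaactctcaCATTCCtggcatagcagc
Ccn1: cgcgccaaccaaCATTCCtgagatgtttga
Axl: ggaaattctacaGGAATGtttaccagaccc
Positions are counted from the RefSeq start site, which need not be the outermost start in GENCODE: in 3 genes, Ankrd1, Amotl2 and Lats2, the matches lie inside the GENCODE gene. The match lay upstream of the RefSeq start site in 7 of the 8 genes and just after it in Lats2, whose other window held none. The AP-1 motif TGANTCA, searched on both strands, was in 0 of the 10 windows of these genes and in 7.8% of all windows, and the CArG box, the site of serum response factor, was in 0 of 10 and in 1.6%. No match of CATTCC in these windows therefore overlapped another motif searched, and the matches are letters in a window, not binding sites. By whole series, CATTCC was in 58 of 320 genes called lower (18.1%), in 51 of 283 called higher (18.0%) and in 1607 of 10963 not past the threshold (14.7%). Genes with 2 or more matches in a window made up 0.94% of those called lower, 0.71% of those called higher and 1.32% of those not past.

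**Figure D1:**
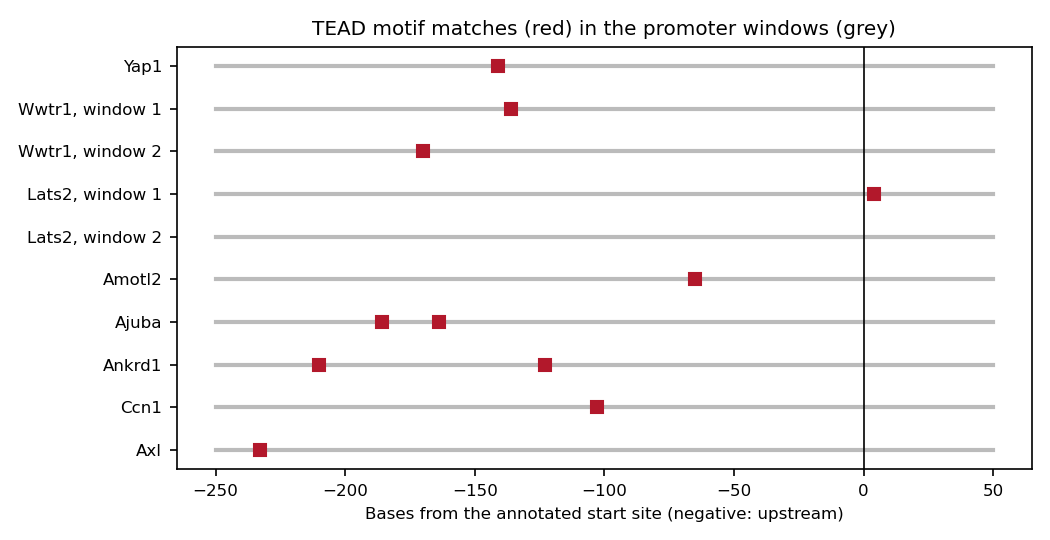
Position of each MCAT motif match (red squares) in the promoter windows (grey lines), in bases from the RefSeq start site (vertical line), for the 8 genes with a window; Wwtr1 and Lats2 have 2 windows each. Matches lie between -233, in Axl, and 4, in Lats2.

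Of the 10 genes, 2 fell in null-labelled ventricles, Ankrd1 and Ajuba, 0 rose and 8 did not pass an adjusted p of 0.05 in edgeR's quasi-likelihood test over all genes. Across the 14815 genes tested, 5.41% were called, 2.98% lower and 2.43% higher. By unadjusted p under 0.05 there were 4 members, against 20.5% of all genes, and DESeq2 called 4 members (Ankrd1, Ajuba and Ccn2 lower, Axl higher). In 4 of the 10 genes the groups did not overlap, as in 26.6% of all genes tested; 3 were lower under the null label (13.9% of all genes) and 1 was higher (12.7%). The median log2 fold change was -0.01 over the 10 genes and -0.00396 over all genes tested. The co-activators and Tead1 stood near 0, as did Lats2 and Amotl2, which are targets too. The larger differences were falls in Ankrd1, Ccn2, Ccn1 and Ajuba and a rise in Axl, and of these only Ankrd1 and Ajuba passed. In whole ventricle, fewer cells of a type and less RNA per cell cannot be told apart.

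**Figure D2:**
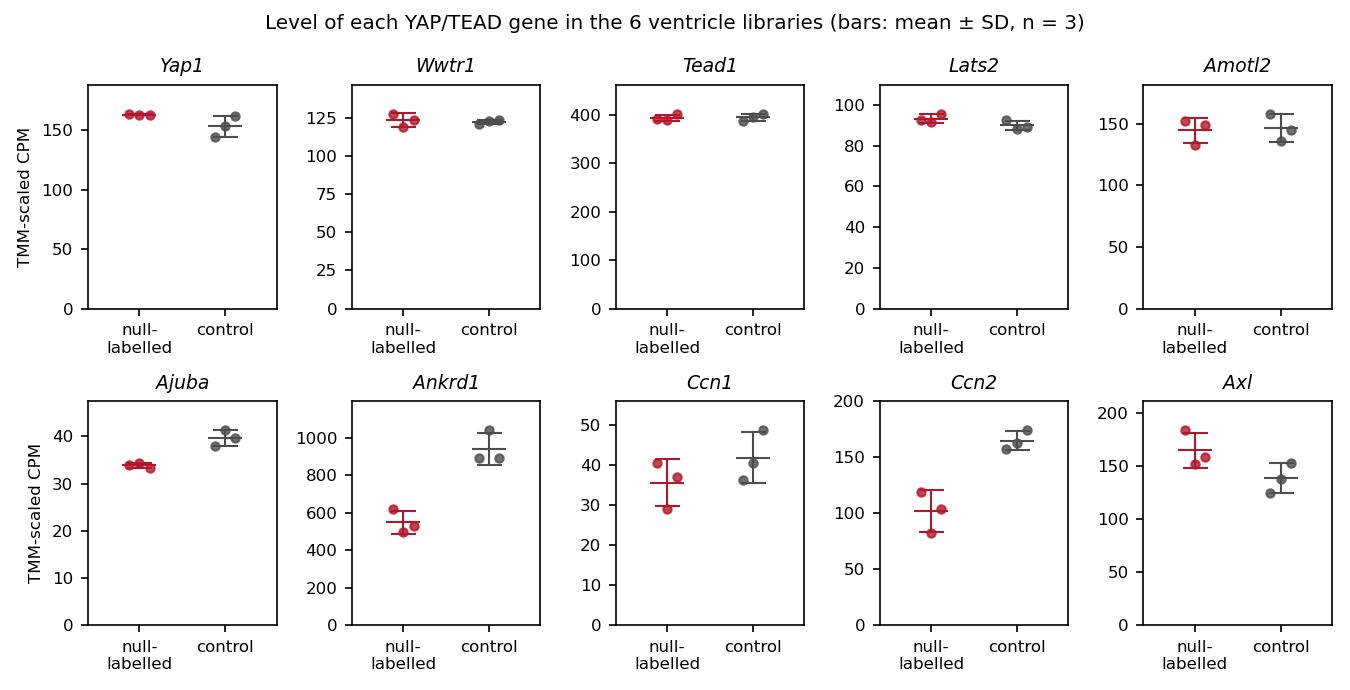
TMM-scaled CPM of each gene (vertical axes, from 0) in the 3 null-labelled libraries (red) and the 3 controls (grey), with mean ± SD. Ankrd1 lies at 495 to 618 CPM in null-labelled libraries, below the 891 to 1040 CPM of controls, while Wwtr1 and Tead1 overlap.

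Ankrd1 encodes a nuclear and sarcomeric ankyrin repeat protein of cardiomyocytes that is induced by stretch, and it lies on chromosome 19, 36111961 to 36120099 (GRCm38, minus strand). It had 618, 495 and 531 CPM in null-labelled libraries, against 893, 1040 and 891 CPM in controls. Every null-labelled library was below every control. The log2 fold change was -0.78 ± 0.10 (SE; 95% interval -1.01 to -0.56), or 1.72-fold lower, with adjusted p = 0.00815 in edgeR. The call held in every alternative with more than 1 library in each group, with log2 fold changes from -0.88 to -0.71 and adjusted p up to 0.0404. Among these, the threshold of 0.1 uses the same fit and could not lose a call. From null 2 alone the log2 fold change of Ankrd1 was -0.93. Its RefSeq promoter window carries the pair of MCAT matches printed above, at -210 and -123 bases from a start site that lies 255 bases inside the GENCODE gene.

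Ankrd1 was also the most abundant of the 10 transcripts per length. In RPKM, which scales counts to exon length and library size, it averaged 190 ± 21.9 in null-labelled ventricles and 326 ± 29.4 in controls. Ccn2 came next, with 35.6 ± 6.45 RPKM in null-labelled ventricles and 57.5 ± 3.13 RPKM in controls. In controls the others followed in the order Tead1 (29.1), Axl (27.6), Wwtr1 (25.7), Amotl2 (23.3), Ccn1 (20.7), Yap1 (16.6), Lats2 (12.9) and Ajuba (10.9 RPKM). Of neighbours in this order, Tead1 and Axl, Axl and Wwtr1, and Amotl2 and Ccn1 had overlapping ranges of mean ± SD. In null-labelled ventricles the order was the same except that Axl (32.8 ± 3.34 RPKM) stood above Tead1 and that Yap1 and Ccn1 were level. There the ranges of Ccn2 and Axl, of Axl and Tead1, and of Ccn1 (17.6 ± 2.88 RPKM) and Yap1 (17.6 ± 0.0594 RPKM) overlapped.

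Ccn2 (connective tissue growth factor) encodes a secreted matricellular protein and is a widely used YAP readout; it lies on chromosome 10, 24595442 to 24598683 (plus strand). It had 119, 82.2 and 104 CPM in null-labelled libraries, against 157, 163 and 174 CPM in controls. The groups did not overlap, and null 2 was the lowest library. The log2 fold change of -0.69 ± 0.14 (95% interval -1.05 to -0.34) did not pass in edgeR (adjusted p = 0.0599). It passed in DESeq2 (adjusted p = 0.000493) and limma-voom (0.0469). In edgeR it passed without null 1 (log2 fold change -0.82, adjusted p = 0.0269) or without null 2 (-0.56, 0.00980). It did not pass in edgeR without control 1 (0.154), control 2 (0.158), control 3 (0.147) or null 3 (0.143). Nor did it pass with no filter (0.113), the 1 CPM filter (0.0514) or a replicate block (0.0921). RLE scaling (0.0600), upper-quartile scaling (0.0631) and removal of haemoglobin genes (0.0592) did not bring it past either. From null 2 alone its log2 fold change was more negative than in the full fit. An antisense transcript, Gm15270, overlaps 665 exonic bases of Ccn2, and since the strand setting of the counting is not given, its reads cannot be told apart from those of Ccn2.

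Ccn1, earlier called Cyr61, encodes a related matricellular protein and is also an immediate early gene; it lies on chromosome 3, 145646976 to 145649981 (minus strand). It had 40.5, 29.1 and 37.1 CPM in null-labelled libraries, against 36.3, 40.6 and 48.7 CPM in controls. The groups overlapped, with null 1 above control 1 and close to control 2. The log2 fold change of -0.23 ± 0.16 (95% interval -0.62 to 0.16) did not pass (adjusted p = 0.482). The interval covers 0 as well as the log2 fold change of Ajuba.

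Axl encodes a receptor tyrosine kinase, found on fibroblasts, macrophages and other cells, and lies on chromosome 7, 25757273 to 25788705 (minus strand). It had 184, 152 and 159 CPM in null-labelled libraries, against 125, 138 and 153 CPM in controls. Null 2 fell just below control 3, so the groups overlapped. The log2 fold change of 0.25 ± 0.10 (95% interval 0.02 to 0.49) did not pass in edgeR (adjusted p = 0.215) but did in DESeq2 (adjusted p = 0.0299). Of 6 fibroblast markers 3 rose and 3 did not pass, with sums of 7170 to 7880 CPM in null-labelled libraries and 5540 to 6730 CPM in controls. Of 6 macrophage markers 4 rose and 2 did not pass, with sums of 84.3 to 105 CPM in null-labelled libraries and 64.8 to 76.0 CPM in controls. Across all genes tested, 2.43% were called higher and 2.98% lower. DESeq2 called 5 fibroblast and 5 macrophage markers, all higher, and limma-voom called 3 and 4. None of these 12 markers was at 0, and their part in the Axl values was not tested.

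Ajuba encodes a LIM domain protein that binds LATS kinases and limits their action on YAP; it lies on chromosome 14, 54567472 to 54577558 (minus strand). It had 33.9, 34.4 and 33.2 CPM in null-labelled libraries, against 37.9, 41.3 and 39.6 CPM in controls. The groups did not overlap, and the null-labelled libraries lay close together. The log2 fold change was -0.23 ± 0.05 (95% interval -0.33 to -0.12), or 1.17-fold lower (adjusted p = 0.0274 in edgeR). Ajuba no longer passed when control 2 (adjusted p = 0.0870), null 1 (0.0852), null 2 (0.0838) or null 3 (0.105) was left out. Its log2 fold change lay between -0.26 and -0.20 in all 16 alternatives, and was -0.20 from null 2 alone.

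The upstream kinase gene Lats2 (chromosome 14, 57689662 to 57758388, minus strand; it shares 2955 exonic bases with a read-through gene, Gm49361, that the files do not list) had 92.7, 91.6 and 95.7 CPM in null-labelled libraries, against 92.6, 88.4 and 89.4 CPM in controls. Its log2 fold change of 0.05 ± 0.04 (95% interval -0.03 to 0.13) did not pass (adjusted p = 0.507). Amotl2, whose product tethers YAP in the cytoplasm (chromosome 9, 102716672 to 102733418, plus strand), had 152, 133 and 149 CPM in null-labelled libraries, against 158, 136 and 145 CPM in controls. Its log2 fold change was -0.02 ± 0.07 (95% interval -0.17 to 0.13; adjusted p = 0.918), and the libraries of both groups were interleaved. Lats2 and Amotl2 are targets as well as regulators, and for both the groups overlapped.

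Among the nuclear effectors, Yap1 (chromosome 9, 7931999 to 8004596, minus strand) had 164, 163 and 163 CPM in null-labelled libraries, against 144, 154 and 162 CPM in controls. The groups did not overlap, though control 3 lay close to the null-labelled libraries, and the log2 fold change of 0.09 ± 0.04 (95% interval -0.01 to 0.19) did not pass (adjusted p = 0.281). Wwtr1 (chromosome 3, 57455649 to 57575910, minus strand) had 128, 119 and 124 CPM in null-labelled libraries, against 121, 123 and 124 CPM in controls. Its log2 fold change was 0.01 ± 0.04, with a 95% interval of -0.07 to 0.09 and adjusted p = 0.918. Tead1 (chromosome 7, 112679318 to 112906807, plus strand) had 391, 389 and 401 CPM in null-labelled libraries, against 388, 395 and 402 CPM in controls. Its log2 fold change was -0.0046, with a 95% interval of -0.09 to 0.08 and adjusted p = 0.964. For Wwtr1 and Tead1 the groups overlapped. Counts report transcript level, while YAP and TAZ are controlled largely by phosphorylation and location, which were not measured.

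**Figure D3:**
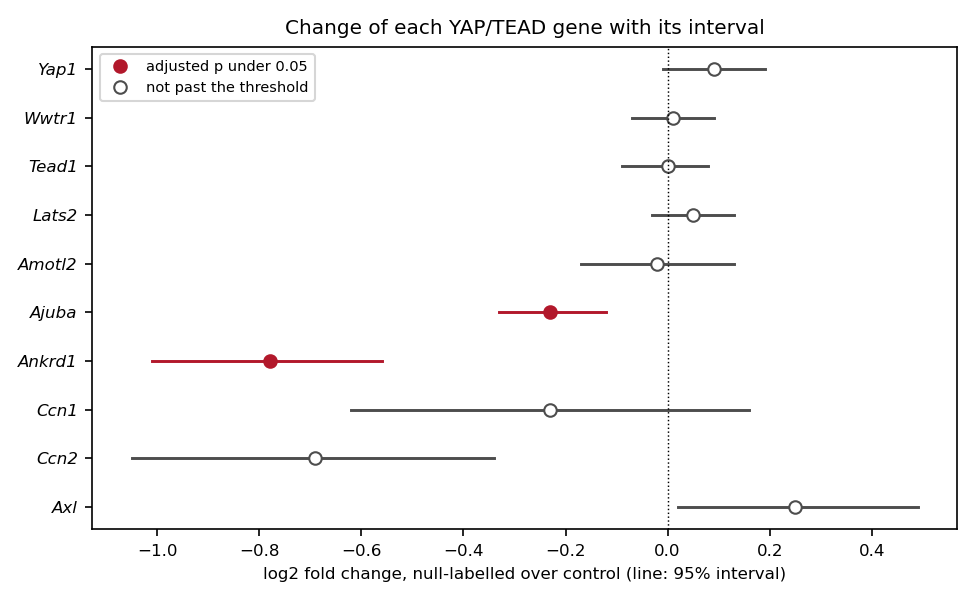
Log2 fold change of each gene, null-labelled over control (horizontal axis), with its 95% interval from edgeR; filled red points passed an adjusted p of 0.05. Ankrd1 and Ajuba are filled, at -0.78 and -0.23, and the intervals of Wwtr1 and Tead1 are narrow around 0.

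Within the null-labelled group several genes shared the order of libraries. Null 1 was the highest and null 2 the lowest library for 6 genes, Ankrd1, Ccn1, Ccn2, Axl, Wwtr1 and Amotl2. Among controls, control 3 was the highest for Ccn1, Ccn2, Axl, Yap1, Wwtr1 and Tead1. After removal of group means, the Pearson correlations of all pairs of the 10 genes over the 6 libraries lay between -0.90, for Lats2 and Ajuba, and 0.99, for Wwtr1 and Ccn2. Among targets it was 0.90 between Ccn1 and Ccn2, 0.91 between Ccn1 and Axl and 0.68 between Ankrd1 and Ccn2, and Amotl2 and Ajuba had -0.86, given as a description of libraries that share depth and cell makeup. Between libraries the SD was 16.4% of the mean in null-labelled libraries and 15.1% in controls for Ccn1, the most variable gene in controls, and 1.72% in null-labelled libraries and 1.75% in controls for Tead1. For Ccn2 it was 18.1% in null-labelled libraries and 5.43% in controls.

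Over the 6 libraries, the 3 most like Ankrd1 by Pearson correlation of log2 CPM, among 9624 genes averaging 10 CPM or more, were Krtcap2 (0.996), Ocel1 (0.995) and Sez6l2 (0.994). Their changes were smaller than that of Ankrd1, with log2 fold changes of -0.13 for Krtcap2 (adjusted p = 0.123), -0.35 for Ocel1 (0.0238) and -0.45 for Sez6l2 (0.0161). The 3 most opposite were Lzic (-0.998), Vps13c (-0.997) and Phactr2 (-0.996), of which Phactr2 rose (log2 fold change 0.26, adjusted p = 0.0130) and Lzic (0.09, 0.241) and Vps13c (0.11, 0.0958) did not pass. Lzic lies on chromosome 4, inside the window around Nppb described below, where a larger share of genes was called. These 6 libraries span both groups, so the correlations include the group difference.

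The rest of the Hippo pathway was read from 35 further genes of the kinase cascade, its regulators and the TEAD and VGLL families, of which 34 were tested. Of these 0 rose, 1 fell, Tead3, and 33 did not pass, against 2.98% of all genes tested called lower and 2.43% higher. The median log2 fold change was -0.0276. Tead3, a TEAD factor, averaged 44.7 ± 2.80 CPM in null-labelled ventricles and 53.4 ± 2.38 CPM in controls, a log2 fold change of -0.26 ± 0.06 (adjusted p = 0.0330). Tead3 did not pass when control 2 (adjusted p = 0.0829), control 3 (0.0549), null 1 (0.108) or null 2 (0.112) was left out. From null 2 alone its log2 fold change was -0.26. Per length it had 6.66 ± 0.418 RPKM in null-labelled ventricles and 7.96 ± 0.355 RPKM in controls, below Tead1 with 29.0 ± 0.500 RPKM in null-labelled ventricles and 29.1 ± 0.509 RPKM in controls. Tead4 and Tead2, named after their values were seen, had log2 fold changes of -0.34 (adjusted p = 0.0561) and -0.06 (0.470).

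The most abundant genes of this list that did not pass were Map4k4, a kinase upstream of LATS, with 328 CPM in null-labelled ventricles and 317 CPM in controls, Amotl1, a relative of Amotl2, with 303 CPM in null-labelled ventricles and 285 CPM in controls, and Slmap, a part of the phosphatase complex that opposes the MST kinases, with 290 CPM in null-labelled ventricles and 305 CPM in controls. Their log2 fold changes were 0.05, 0.09 and -0.07. The MST kinase genes Stk3 and Stk4 and the LATS kinase gene Lats1 had log2 fold changes of 0.10, 0.03 and 0.06 (adjusted p = 0.272, 0.728 and 0.542).

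A signature of 22 YAP targets defined mainly in cancer cells includes Ankrd1, Ccn1, Ccn2, Axl, Amotl2 and Lats2. Among its other 16 genes 15 were tested, of which 1 rose, 0 fell and 14 did not pass. Their median log2 fold change was 0.0164, and 2.43% of all genes tested were called higher and 2.98% lower. Igfbp3, a secreted binding protein of insulin-like growth factors, had 124, 110 and 102 CPM in null-labelled libraries, against 72.0, 65.0 and 83.2 CPM in controls. The groups did not overlap, and the log2 fold change was 0.61 ± 0.11 (adjusted p = 0.0317), opposite in sign to Ankrd1. Igfbp3 did not pass when any 1 library other than control 3 was left out (adjusted p between 0.0526 and 0.126). Nor did it pass with replicate number as a block (0.0821) or with no filter on low counts (0.0593). From null 2 alone its log2 fold change was 0.58.

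Stretch-responsive genes of the heart were read from 22 others, of which 21 were tested. Of these 0 rose, 2 fell and 19 did not pass, against 2.98% of all genes tested called lower and 2.43% higher. Of the 21, 17 lay below 0, and the median log2 fold change was -0.133 (-0.00396 over all genes tested). Ankrd23, a relative of Ankrd1 in the same family of muscle ankyrin repeat proteins, had 33.6, 31.0 and 27.5 CPM in null-labelled libraries, against 47.5, 50.2 and 40.8 CPM in controls. Its groups did not overlap, and its log2 fold change of -0.59 ± 0.10, a 1.51-fold fall, passed (adjusted p = 0.0172), though not when null 2 was left out (0.0682). From null 2 alone its log2 fold change was -0.58. Ankrd2, the third member of that family, averaged 0.0569 CPM in null-labelled ventricles and 0.0599 CPM in controls and was not tested. Nppb, which encodes B-type natriuretic peptide, fell as well, with a log2 fold change of -0.98 (adjusted p = 0.00424), and -1.21 from null 2 alone. Its neighbour Nppa, the atrial natriuretic peptide gene, named after its values were seen, had 171, 284 and 375 CPM in null-labelled libraries, against 653, 730 and 729 CPM in controls. Its groups did not overlap, and its log2 fold change of -1.35 ± 0.32, the most negative in the list, did not pass in edgeR (adjusted p = 0.107). It passed in DESeq2 (0.000689) and in edgeR with null 1, its lowest library, left out (0.0176). It did not pass in limma-voom (0.103), with no filter (0.147) or with a replicate block (0.108). Nor did it pass in edgeR without control 1 (0.232), control 2 (0.251), control 3 (0.204), null 2 (0.281) or null 3 (0.0711). From null 2 alone its log2 fold change was -1.31. Within 3 megabases of Nppb on chromosome 4, 35.0% of 60 tested genes were called, against 5.29% of all others, a window chosen after the calls were seen; Ankrd1, Ankrd23, Ccn2 and Ajuba lie on other chromosomes. The most abundant genes that did not pass were Myh7, the slow myosin heavy chain gene (log2 fold change 0.04), Hspb7, a small heat shock protein gene (-0.08), and Postn, a matrix gene of fibroblasts (0.16).

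Because Ccn1 is an immediate early gene, 18 other such genes, which respond to handling as well as to mechanical and serum signals, were read. Of these 0 rose, 1 fell and 17 did not pass, against 2.98% of all genes tested called lower and 2.43% higher. The list summed to 595 to 652 CPM in null-labelled libraries and 648 to 672 CPM in controls. Klf2, which is induced by flow in endothelium, was the gene that fell (log2 fold change -0.31 ± 0.05, adjusted p = 0.0155). It did not pass when null 2 (0.0659) or null 3 (0.0529) was left out, and its log2 fold change from null 2 alone was -0.34. Srf, the gene of serum response factor, Klf6 and Jun had log2 fold changes of -0.14, 0.07 and -0.03 and did not pass (adjusted p = 0.154, 0.552 and 0.795).

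**Figure D4:**
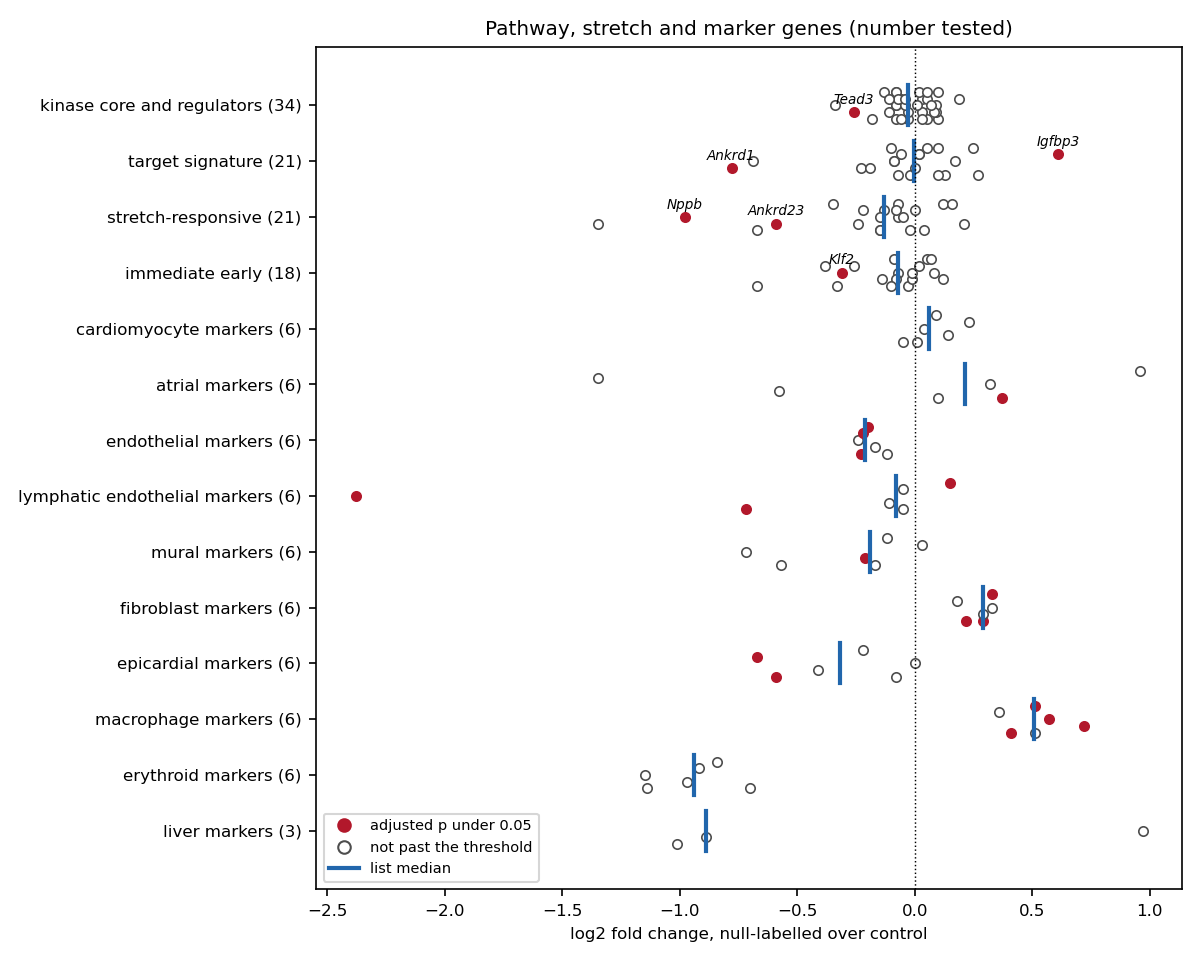
Log2 fold change, null-labelled over control (horizontal axis), of each tested gene in 4 pathway lists and 10 marker lists (rows, number tested in brackets); red points passed an adjusted p of 0.05, names are given for those of the pathway lists, and blue bars are list medians. Ankrd1, Nppb and Ankrd23 lie to the left of their list medians, of which the stretch-responsive one is -0.133 and the signature one -0.00446; fibroblast and macrophage markers lie to the right of 0 and erythroid markers to the left.

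Markers of other cell types differed as well. The shares to set beside marker counts are 2.98% of all genes tested called lower and 2.43% called higher. Of 6 endothelial markers 3 fell and 3 did not pass, and they summed to 1140 to 1230 CPM in null-labelled libraries and 1270 to 1420 CPM in controls. Of 6 mural cell markers 1 fell and 5 did not pass, with sums of 1210 to 1300 CPM in null-labelled libraries and 1220 to 1710 CPM in controls. Of 6 epicardial markers 2 fell and 4 did not pass, with sums of 172 to 193 CPM in null-labelled libraries and 195 to 227 CPM in controls. DESeq2 called 4 endothelial, 1 mural and 3 epicardial markers, all lower, and limma-voom called 3, 1 and 2. Ccn1 and Ccn2 are expressed in several of these cell types, and the part of cell makeup in their values was not tested. None of these 18 markers was at 0. All 6 erythroid markers lay below 0, with a median log2 fold change of -0.941; edgeR called 0 of them (2 at an unadjusted p under 0.05) and DESeq2 2, both lower, and they summed to 1210 to 1970 CPM in null-labelled libraries and 1750 to 5070 CPM in controls. Of 6 liver markers 3 were tested and 0 passed in edgeR or DESeq2 (1 with an unadjusted p under 0.05), with sums of 2.06 to 4.82 CPM in null-labelled libraries and 0.477 to 14.4 CPM in controls. Of 6 cardiomyocyte markers, edgeR called 0 (2 at an unadjusted p under 0.05) and DESeq2 1, which was higher, with a median log2 fold change of 0.0621. Their sums, given with the library totals, overlapped between the groups. Which cells the Ankrd1 reads came from, and the part of cell makeup in its values, was not tested.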

How the data were processed

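RNA sequencing of 3 null-labelled and 3 control ventricle libraries was analysed. The authors deposited a file of raw whole-number counts by gene for each library. The submitters' processing notes name build mm10 and the tools cutadapt 1.13, HTSeq 0.6.1p1, STAR and DESeq2, without their roles; annotation release and strand setting were not given in the sources used here. Of 25006 identifiers, 24991 matched GENCODE M21 (GRCm38), which gave symbols, positions and exon lengths. Promoter windows are from RefSeq (GRCm38.p6).

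In R 4.3.3, genes were filtered with filterByExpr and scaled by TMM, and the groups were compared with edgeR 4.0.16 (robust quasi-likelihood F test, group as the only term, two-sided), with Benjamini-Hochberg adjustment over all 14815 genes tested and a threshold of 0.05. The adjusted p of a gene is from this test unless another is named, and 95% intervals use its standard error and degrees of freedom. The script was tested on simulated data. Library totals were 35195544 to 44330594 counts. No within-group pair of libraries agreed within sampling noise.

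Members and gene lists were chosen with earlier results of these data known. Genes beyond the members are named by rule: those past the threshold in each pathway list, the 3 most abundant others (1 result under this rule is not reported here), and the 3 most and least correlated with Ankrd1. Stk3, Stk4, Lats1, Tead2, Tead4, Ankrd2, Nppa and the marker genes named were added afterwards. Alternatives were other scalings (RLE, upper quartile), no filter, a filter of 1 CPM in 3 libraries, DESeq2 1.42.0, limma-voom (limma 3.58.1), each library left out, a replicate block, haemoglobin genes removed, a threshold of 0.1, and null 2 alone against controls.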

Additional observations from a re-analysis of the deposited data

How the results depend on the processing

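Under 16 alternatives the 10 genes gave 160 values, of which 5 lost a call (all Ajuba), 7 gained one (6 Ccn2, 1 Axl) and 0 reversed a call; the sign of a value past no threshold changed in 10, for Wwtr1, Tead1 and Amotl2. Among the 16, the threshold of 0.1 uses the same fit and could only gain calls, and null 2 alone rests on 1 null-labelled library. The number of members called, 2, was 4 with DESeq2, 3 with limma-voom, 3 at a threshold of 0.1 and 1 to 2 with 1 library left out. Without null 1, and without null 2, the members called were Ankrd1 and Ccn2 in place of Ankrd1 and Ajuba. The number of all genes called, 801, was 258 to 942 with 1 library left out (258 when this was null 2, 277 for null 3, 385 for null 1 and 402 for control 2), 52 with null 2 alone (which is assumed to vary like the controls) and 1430 at a threshold of 0.1. Calls in the pathway lists with 1 library left out were 0 to 1 for the kinase cascade and regulators, 1 to 2 for the target signature, 1 to 4 for stretch-responsive genes and 0 to 2 for immediate early genes. With no filter these were 2 for the kinase cascade, 1 for the signature and 2 for immediate early genes. DESeq2 gave 5 for the signature, 5 for stretch-responsive and 2 for immediate early genes. At a threshold of 0.1 they were 3 for the kinase cascade and 3 for immediate early genes. The cause of these shifts was not tested, apart from fewer libraries and the looser threshold.

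Replicate numbers did not pair the libraries: deviations of same-numbered libraries correlated at -0.0643, -0.0467 and -0.121, and 0 of 6 libraries matched its own number best. With the replicate block 570 genes and 2 members, Ankrd1 (adjusted p = 0.0286) and Ajuba (0.0492), were called, and 1 signature gene.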
